A study of Mus musculus with 22 samples.

Results

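Chemokines are small secreted proteins that guide the movement of leukocytes, and 10 of their genes were followed here in mouse kidney: Ccl2, Ccl7, Ccl5, Cxcl1, Cxcl9, Cxcl10, Cxcl12, Cxcl14, Cxcl16 and Cx3cl1. They were picked by symbol from the 32858 genes with a row in the count table, and all 10 had a row. Kidneys came from 22 male C57Bl6/J mice aged 8 to 10 weeks, each giving 1 library of poly-A RNA. Vehicle was given to 5 mice, KW6002 alone to 6 mice, cisplatin alone to 5 mice and both agents to 6 mice, the group spelled Cisplatine + KW6002 in the labels and called co-treated below. Cisplatin, a platinum drug that damages DNA and injures the renal tubule, was injected intraperitoneally at 3 mg/kg on 6 days, and KW6002 (istradefylline), an antagonist of the adenosine receptor encoded by Adora2a, was injected at 3 mg/kg daily from day -5 to day 7. Kidneys were taken 72 hours after the last cisplatin dose, so each value is a single late time point of a subchronic protocol in mice that carried no engineered allele.

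A chemokine is named for the spacing of the first cysteines of the mature protein, and it acts on receptors that couple to G proteins. Ccl2 and Ccl7 bind Ccr2 and draw monocytes, Ccl5 binds Ccr1 and Ccr3 among others, and Cxcl1 binds Cxcr2 and draws neutrophils. Cxcl9 and Cxcl10 share the receptor Cxcr3 on activated T cells and NK cells and are classic targets of interferons. Cxcl12, the ligand of Cxcr4 and Ackr3, is made constitutively by stromal and endothelial cells, and Cxcl14 is an epithelial and stromal chemokine. Cxcl16 and Cx3cl1 are made as transmembrane proteins that tether cells bearing Cxcr6 or Cx3cr1 until proteases of the ADAM family release them.

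The genes lie on mm10 chromosomes 5 (Cxcl1, chr5:90891241-90893115; Cxcl9, chr5:92321347-92328079; Cxcl10, chr5:92346638-92348889), 6 (Cxcl12, chr6:117168535-117181367), 8 (Cx3cl1, chr8:94772009-94782427), 11 (Cxcl16, chr11:70453983-70459984; Ccl2, chr11:82035571-82037453; Ccl7, chr11:82045712-82047525; Ccl5, chr11:83525778-83530518) and 13 (Cxcl14, chr13:56288643-56296551). Ccl5, Cxcl9, Cxcl10, Cxcl14 and Cxcl16 are on the minus strand and the others on the plus strand. Cxcl10 shares 133 exon bases with Art3 and Cxcl16 shares 552 exon bases with Zmynd15, both on the opposite strand. Ccl2 overlaps Gm17268, also on the opposite strand, without sharing exon bases. The library kit keeps strand, but whether counting used it is not given in the sources used here, so reads in these overlaps could be miscounted.

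The 250 bases before the RefSeq transcription start (GRCm38.p6) were read for 6 of the 10 genes. Those of Cxcl1, Cxcl9 and Cxcl10 are shown because Cxcl1 had the largest difference between cisplatin and vehicle, and because Cxcl9 and Cxcl10, which share a receptor and a stretch of chromosome 5, moved in opposite directions. Each runs 5′ to 3′ on the strand of its gene, and capitals mark matches to the motifs searched.
Cxcl1: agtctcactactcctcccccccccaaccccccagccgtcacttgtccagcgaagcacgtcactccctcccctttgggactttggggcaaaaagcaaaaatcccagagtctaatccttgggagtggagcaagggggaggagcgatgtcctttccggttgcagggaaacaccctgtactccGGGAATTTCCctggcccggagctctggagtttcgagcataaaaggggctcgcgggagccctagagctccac
Cxcl9: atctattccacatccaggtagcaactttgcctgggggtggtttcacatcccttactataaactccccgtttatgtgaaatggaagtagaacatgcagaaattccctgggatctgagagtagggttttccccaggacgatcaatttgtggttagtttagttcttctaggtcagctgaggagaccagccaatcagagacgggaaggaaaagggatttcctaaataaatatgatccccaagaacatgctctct
Cxcl10: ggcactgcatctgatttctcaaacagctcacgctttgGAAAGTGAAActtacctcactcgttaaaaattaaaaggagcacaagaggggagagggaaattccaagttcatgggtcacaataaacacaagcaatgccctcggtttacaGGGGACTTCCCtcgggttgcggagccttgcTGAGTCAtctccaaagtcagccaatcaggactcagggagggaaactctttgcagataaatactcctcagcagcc
The windows are chr5:90890995-90891244 for Cxcl1 (plus strand), chr5:92328080-92328329 for Cxcl9 (minus strand) and chr5:92348890-92349139 for Cxcl10 (minus strand). In Cxcl1 the capitals are 1 match to the NF-kB consensus that starts 71 bases before the start site. In Cxcl10 they are an interferon-stimulated response element (GAAANNGAAA) at 213 bases, overlapping matches to the NF-kB consensus at 104 and 103 bases, and an AP-1 element (TGANTCA) at 74 bases. The Cxcl9 window held none of these letters, nor did those of Cxcl12 and Cx3cl1, and the Cxcl14 window held an interferon-stimulated response element at 172 bases and a GAS element (TTCNNNGAA) at 191 bases. Searched on both strands in all 32851 promoters of the same length, the NF-kB consensus was found in 5.00%, the interferon-stimulated response element in 2.98%, GAS in 7.02% and AP-1 in 6.75%. The RefSeq start of Cx3cl1 is 171 bases from the start of the gene model used for counting, and a match describes letters in a window, not a bound site.

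Libraries held 26471762 to 40510754 counts (median 32721214.5). Levels are given as CPM, counts per 1000000 counts of the TMM-scaled library size. Differences are log2 fold changes from edgeR's quasi-likelihood fit over 17131 genes, each with its standard error (SE) and a Benjamini-Hochberg adjusted p over all those genes. A gene passed at an adjusted p below 0.05. Of the 10 chemokines, 9 reached the low-count filter (a CPM of 0.306 in at least 5 libraries). Ccl7 did not, because only 3 libraries, all from cisplatin-treated mice, reached that level. Of the genes that did, Ccl2 was at the filter level in 2 of the vehicle-treated mice and Cxcl9 in 3 of the cisplatin-treated and 2 of the co-treated mice, and the other 7 in at least 4 mice of every group.

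Libraries differed within groups in ways the treatments do not explain. The summed CPM of 9 macrophage markers was 495 and 464 in vehicle replicates 1 and 2 against 202 to 220 in the other vehicle-treated mice, and it was 549 in KW6002 replicate 1. Co-treated replicate 6 held 64.4 CPM of 4 adrenal cortex markers, against 1.201 to 2.70 in every other library. The summed CPM of 5 fat markers also varied widely within groups. It was 44.9 to 678 in vehicle-treated, 10.2 to 314 in KW6002-treated, 127 to 310 in cisplatin-treated and 3.92 to 226 in co-treated mice. No set of libraries was left out for its fat markers, and their part in the chemokine values was not tested. Sample label numbers ran in the 300s for 3 vehicle-treated and 3 KW6002-treated mice, and in the 500s in the remaining 16, so all cisplatin-treated mice carried 500s numbers. Results are given without the 4 libraries named for macrophage or adrenal markers, or within the 500s numbers, where that changes a call. In bulk kidney, fewer cells of a type and less RNA per cell cannot be told apart.

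Most of the chemokines differed between cisplatin and vehicle, as did most of all tested genes. Against vehicle, 6 of the 9 tested were higher (Ccl2, Cxcl1, Cxcl10, Cxcl14, Cxcl16 and Cx3cl1), 1 was lower (Cxcl9), and Ccl5 and Cxcl12 did not pass. Across all tested genes 34.6% were higher and 35.9% were lower in this comparison, so changes of either sign were frequent. For the same 7 chemokines the values of cisplatin- and vehicle-treated mice did not overlap, which held for 55.3% of all genes. The median log2 fold change was 0.49 over the 9 chemokines and -0.01 over all tested genes. With KW6002 on top of cisplatin, 2 chemokines were higher than with cisplatin alone (Cxcl10 and Ccl5; 28.6% of all genes were higher) and 2 were lower (Ccl2 and Cxcl14; 27.2% of all genes were lower). The median over the chemokines was -0.11 there, against 0.01 over all genes. Both comparisons use the same cisplatin-treated mice, so their values are not independent of each other.

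**Figure D1:**
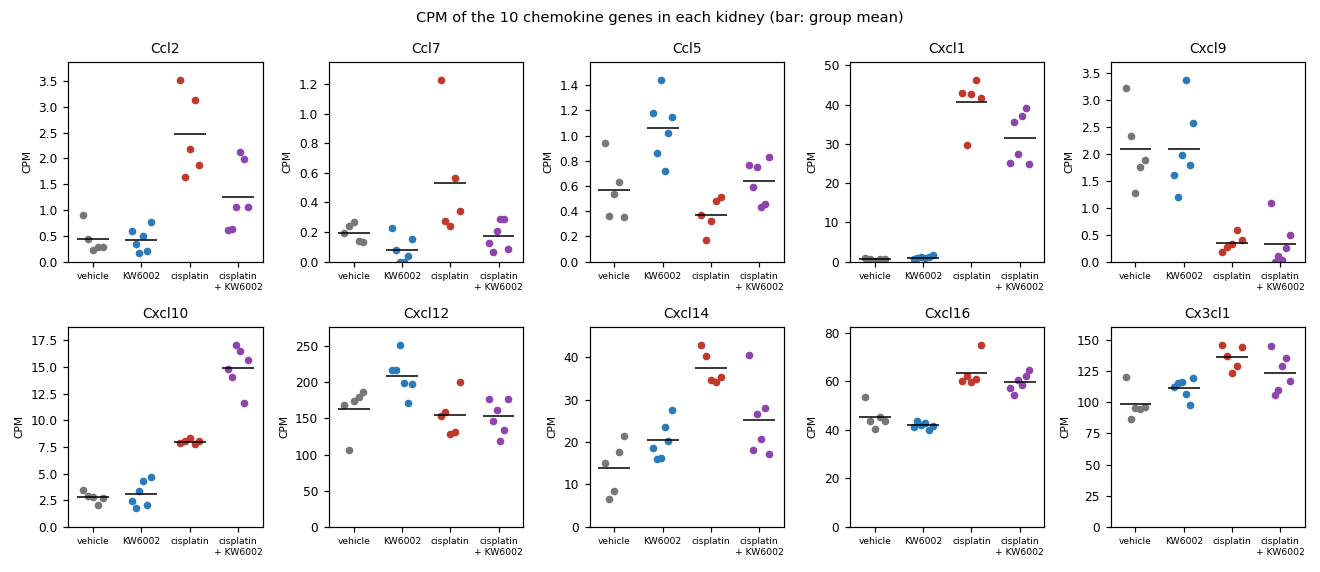
CPM of each chemokine (y axis, linear from 0, 1 panel per gene) in each of the 22 mice (points) by group (x axis), with horizontal lines at the group means. Cxcl1 lay between 0.202 and 1.69 CPM without cisplatin and between 24.9 and 46.2 CPM with it, Cxcl9 fell, and Cxcl10 was highest in the co-treated mice.

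**Figure D2:**
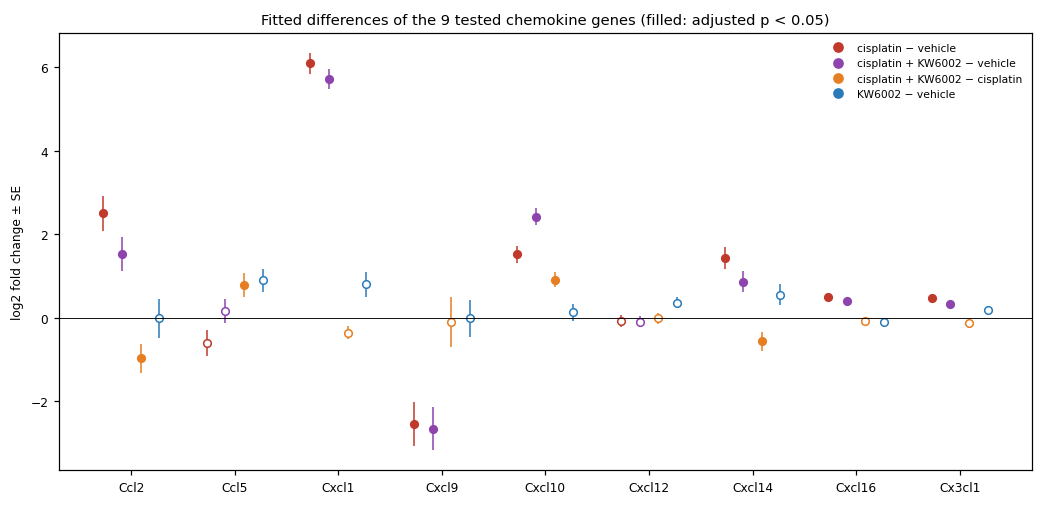
Log2 fold change from edgeR (y axis) of the 9 tested chemokines (x axis) in 4 comparisons (colours), with standard errors as bars and filled points where the adjusted p was below 0.05. Cxcl1 had a log2 fold change of 6.09 for cisplatin against vehicle, and the estimates for KW6002 against vehicle lay between -0.11 and 0.89.

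Ccl2, the main attractant of monocytes, was 0.907, 0.441, 0.235, 0.282 and 0.293 CPM in the 5 vehicle-treated mice. With cisplatin it was 3.52, 1.63, 2.19, 3.13 and 1.87 CPM. The lowest cisplatin-treated mouse thus stood above the highest vehicle-treated one. The fit gave a log2 fold change of 2.497 (SE 0.42, adjusted p = 1.33e-05), a 5.65-fold rise. Co-treated mice ran from 0.608 to 2.12 CPM with a median of 1.06. Their mean of 1.24 ± 0.66 CPM (SD, n = 6) lay between the vehicle mean of 0.432 ± 0.277 CPM (SD, n = 5) and the cisplatin mean of 2.47 ± 0.818 CPM (SD, n = 5). Ccl2 thus fell by 0.98 on the log2 scale from cisplatin to co-treatment (SE 0.35, adjusted p = 0.0201), with overlapping groups, and still exceeded vehicle 2.87-fold (log2 1.52, SE 0.42, adjusted p = 0.00339). The fall from cisplatin did not pass without cisplatin replicate 1 (log2 -0.81, adjusted p = 0.0686) or cisplatin replicate 4 (log2 -0.88, adjusted p = 0.0539).

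Ccl7, the neighbour of Ccl2 on chromosome 11 and a second Ccr2 ligand, was near the detection limit. Its counts were 4 to 8 per library in vehicle-treated, 0 to 8 in KW6002-treated, 9 to 46 in cisplatin-treated and 2 to 10 in co-treated mice. In CPM, the cisplatin-treated mice read 1.23, 0.276, 0.24, 0.562 and 0.34, and the vehicle-treated mice 0.194, 0.241, 0.269, 0.141 and 0.13. Cisplatin replicate 1 therefore held more Ccl7 than any other mouse, and the group ranges overlapped. In a fit without the filter Ccl7 was higher with cisplatin than with vehicle (log2 1.43, SE 0.53, adjusted p = 0.0306) and fell by 1.55 with co-treatment (SE 0.49, adjusted p = 0.0168). Co-treated mice had 0.0627 to 0.29 CPM and did not differ detectably from vehicle at these counts (log2 -0.12, adjusted p = 0.954).

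The macrophage markers bear on the same cells as these ligands. Their summed CPM was 202 to 495 in vehicle-treated, 186 to 549 in KW6002-treated, 308 to 413 in cisplatin-treated and 163 to 269 in co-treated mice. Of the 9 markers, 2 were higher and 2 lower with cisplatin than with vehicle, beside 34.6% and 35.9% of all genes. In co-treated against cisplatin-treated mice 1 was higher and 2 lower, beside 28.6% and 27.2%. Every co-treated mouse had a lower sum than every cisplatin-treated mouse, and its part in the Ccl2 and Ccl7 values was not tested. Without the 4 libraries named above, Ccl2 rose by 3.17 (log2; SE 0.51, adjusted p = 2.07e-05) with cisplatin and its difference between co-treatment and cisplatin was -0.93 (adjusted p = 0.0251).

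Ccl5, a chemokine that T cells, NK cells and stressed epithelium make, was low throughout. Vehicle-treated mice had 0.939, 0.361, 0.538, 0.634 and 0.358 CPM, and cisplatin-treated mice had 0.373, 0.176, 0.32, 0.482 and 0.51 CPM. These groups overlapped, and the log2 difference of -0.62 (SE 0.31, 95% interval -1.25 to 0.02, adjusted p = 0.0768) did not pass. It passed on leaving out vehicle replicate 2 (log2 -0.74, adjusted p = 0.0439), vehicle replicate 5 (log2 -0.75, adjusted p = 0.0391) or cisplatin replicate 5 (log2 -0.75, adjusted p = 0.0461). Co-treated mice, at 0.435 to 0.831 CPM with a median of 0.675, were 1.72-fold higher than cisplatin-treated mice (log2 0.78, SE 0.29, adjusted p = 0.0253). That call was lost on leaving out cisplatin replicate 2 (log2 0.60, adjusted p = 0.0825), cisplatin replicate 3 (log2 0.73, adjusted p = 0.0560) or co-treated replicate 6 (log2 0.68, adjusted p = 0.0612), and without the 4 libraries (log2 0.69, adjusted p = 0.0501). The summed CPM of 8 T cell markers was 5.33 to 8.39 in vehicle-treated, 6.15 to 9.32 in KW6002-treated, 3.61 to 4.36 in cisplatin-treated and 3.65 to 5.64 in co-treated mice. That of 5 NK cell markers was 0.939 to 1.14, 0.920 to 2.08, 0.502 to 0.850 and 0.941 to 1.54 in the same order. Of the 6 T cell markers tested, 1 was higher and 4 lower with cisplatin than with vehicle. In co-treated against cisplatin-treated mice, 2 were higher and 2 lower. Of the 3 NK cell markers tested, 1 was higher and 2 lower with cisplatin, and 1 was higher and 0 lower in co-treated than in cisplatin-treated mice. Across all tested genes 34.6% were higher and 35.9% lower in the first comparison, and 28.6% and 27.2% in the second. The part of either cell type in the Ccl5 values was not tested.

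Cxcl1, a neutrophil attractant induced through NF-kB in injured epithelium, showed the largest difference of the 10 genes. In vehicle-treated mice it read 0.874, 0.682, 0.202, 0.634 and 0.586 CPM. After cisplatin the 5 mice read 42.9, 29.7, 42.8, 46.2 and 41.7 CPM. The groups were far apart, and the fit gave a 68.0-fold rise (log2 6.09, SE 0.24, adjusted p = 1.63e-15). In co-treated mice Cxcl1 ran from 24.9 to 39.3 CPM with a median of 31.5, still 52.8-fold above vehicle (log2 5.72, SE 0.24, adjusted p = 1.52e-14). Their mean of 31.6 ± 6.44 CPM (SD, n = 6) was below the cisplatin mean of 40.7 ± 6.34 CPM (SD, n = 5), but the log2 difference of -0.36 (SE 0.16, 95% interval -0.69 to -0.04) had an adjusted p of 0.0526 and did not pass. This value sat at the threshold and passed in 10 of 23 alternatives. It passed within the 500s label numbers (log2 -0.36, adjusted p = 0.0262) and on leaving out cisplatin replicate 2 (log2 -0.46, adjusted p = 0.0193) or co-treated replicate 2 (adjusted p = 0.0488), 4 (adjusted p = 0.0405) or 5 (adjusted p = 0.0277). Scaling also decided it: it passed by library size only (log2 -0.42, adjusted p = 0.0291) and relative to the counts of the gene Ppia (log2 -0.95, adjusted p = 2.32e-05), where the median of all genes was -0.60. It did not pass in DESeq2 (adjusted p = 0.0717) or without the 4 libraries (adjusted p = 0.0776).

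Markers of neutrophils, the cells that Cxcl1 attracts, were scarce in all groups. The summed CPM of 6 of them was 2.49 to 10.7 in vehicle-treated, 2.67 to 7.63 in KW6002-treated, 3.19 to 7.28 in cisplatin-treated and 2.18 to 5.37 in co-treated mice, so the groups overlapped. Ly6g had at most 4 counts in any library, and Mpo had 0 counts in every cisplatin-treated and co-treated mouse. Of the 3 neutrophil markers that could be tested, 1 was higher with cisplatin than with vehicle and 0 were lower, beside 34.6% and 35.9% of all genes.

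Cxcl9 and Cxcl10 lie next to each other on chromosome 5, share Cxcr3 and were moved in opposite directions by cisplatin. Cxcl9 was 3.21, 2.33, 1.28, 1.76 and 1.89 CPM with vehicle and 0.186, 0.276, 0.32, 0.589 and 0.396 CPM with cisplatin. No cisplatin-treated mouse reached the lowest vehicle value, and the level was 5.88-fold lower (log2 -2.56, SE 0.53, adjusted p = 0.000181). In co-treated mice Cxcl9 ran from 0 to 1.09 CPM with a median of 0.18. Replicate 2 of that group had 0 counts, which allows up to 0.0941 CPM, counting error only. The co-treated level stayed 6.35-fold below vehicle (log2 -2.67, SE 0.51, adjusted p = 0.000116), and its log2 difference from cisplatin alone was -0.11 (SE 0.60, 95% interval -1.35 to 1.13, adjusted p = 0.886), an interval too wide to show that the level was the same.

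In these libraries Cxcl10 rose with cisplatin and was higher still with KW6002. It read 3.5, 2.85, 2.82, 2.08 and 2.7 CPM with vehicle and 7.83, 8.06, 8.31, 7.78 and 8.01 CPM with cisplatin. The cisplatin-treated mice lay within 1 CPM of each other and above all vehicle-treated mice, a 2.86-fold rise (log2 1.52, SE 0.20, adjusted p = 5e-07). Co-treated mice ran from 11.6 to 17 CPM with a median of 15.2, and all 6 exceeded all 5 cisplatin-treated mice. Of the 10 chemokines, Cxcl10 alone had no overlap between these groups, which 37.8% of all genes also showed. The difference was 1.87-fold (log2 0.90, SE 0.18, adjusted p = 0.00017), and against vehicle the co-treated level was 5.35-fold higher (log2 2.42, SE 0.20, adjusted p = 6.51e-10). Art3, the gene that overlaps its exons on the other strand, had means of 6.38 CPM with vehicle, 5.92 CPM with cisplatin and 3.47 CPM with co-treatment.

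The calls for Cxcl10 and Ccl5 in this comparison passed by library size only (adjusted p = 0.000364 and 0.0397). They also passed in DESeq2 (adjusted p = 2.95e-06 and 0.028). Scaling to a single gene lost both calls. Relative to the counts of Ppia, the cyclophilin A gene, the co-treated level of Cxcl10 was higher by 0.28 (log2, adjusted p = 0.164), and the median of all genes was then -0.60. Measured from that median Cxcl10 was higher by 0.89. For Ccl5 the same scaling gave 0.22 (log2, adjusted p = 0.518), or 0.82 measured from the median. Ppia itself was higher in co-treated than in cisplatin-treated mice (log2 0.59, SE 0.10, adjusted p = 2.65e-05) and lower with cisplatin than with vehicle (log2 -0.36, SE 0.10, adjusted p = 0.00386). The paper's quantitative PCR of kidney used Ppia as its control. There Cxcl10 also rose with cisplatin but was lower, not higher, with both agents than with cisplatin alone. Ccl2 went the same way there as in these libraries. What sets the Cxcl10 results apart was not tested.

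Cxcl12 had high levels and showed little response in these libraries. The paper's quantitative PCR of kidney instead gave Cxcl12 a large rise with cisplatin, the largest among the inflammatory transcripts in its supplementary list for kidney. Whether the same mice were used there is not stated, and the cause of that difference was not tested. Vehicle-treated mice had 169, 107, 174, 180 and 187 CPM, and cisplatin-treated mice had 153, 159, 129, 131 and 201 CPM. The groups overlapped, with a log2 difference of -0.08 (SE 0.14, 95% interval -0.38 to 0.22, adjusted p = 0.642). Its sign turned when scaled by library size only (log2 0.14) or to Ppia (log2 0.30). Co-treated mice had 119 to 177 CPM with a median of 154, a log2 difference from cisplatin of -0.02 (SE 0.14, 95% interval -0.30 to 0.27, adjusted p = 0.916).

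Cxcl14 was 15.2, 6.62, 8.37, 17.6 and 21.5 CPM with vehicle and 42.9, 40.2, 34.7, 34.2 and 35.4 CPM with cisplatin. Every cisplatin-treated mouse exceeded every vehicle-treated mouse, and the rise was 2.69-fold (log2 1.43, SE 0.26, adjusted p = 3.38e-05). Within the 500s label numbers the rise was 0.93 on the log2 scale (SE 0.25, adjusted p = 0.00368). Co-treated mice had 17.2 to 40.6 CPM with a median of 23.7, which spans the values of both groups. The log2 difference from cisplatin was -0.57 (SE 0.24, adjusted p = 0.0441) and passed narrowly. It did not pass in 9 of the 11 fits that left out 1 cisplatin-treated or co-treated mouse (adjusted p = 0.0527 to 0.0961), and passed without co-treated replicate 1 or 5. DESeq2 gave it an adjusted p of 0.0671, and without the 4 libraries it was 0.0639. Against vehicle the co-treated level was 1.81-fold higher (log2 0.86, SE 0.25, adjusted p = 0.00502), but within the 500s numbers this was 0.36 (adjusted p = 0.230).

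Fibroblast and pericyte markers were also highest with cisplatin. The summed CPM of 5 of them was 169 to 361 in vehicle-treated, 194 to 395 in KW6002-treated, 698 to 901 in cisplatin-treated and 317 to 566 in co-treated mice. All 5 were higher with cisplatin than with vehicle, and 4 were lower in co-treated than in cisplatin-treated mice. Proximal tubule markers went the other way, at 15437 to 16274 CPM with vehicle, 14623 to 16054 with KW6002, 2046 to 3512 with cisplatin and 6723 to 10021 with co-treatment (7 of 7 lower with cisplatin, 6 of 7 higher in co-treated than in cisplatin-treated mice). Endothelial markers, at 368 to 391, 365 to 399, 302 to 380 and 305 to 339.4 CPM in the same order, moved less. Dendritic cell markers summed to 17.8 to 25.2, 20.05 to 22.9, 16.0 to 18.7 and 13.8 to 17.5 CPM in that order. Across all tested genes 34.6% were higher and 35.9% lower with cisplatin than with vehicle. In co-treated against cisplatin-treated mice these shares were 28.6% and 27.2%. The part of these cell types in the chemokine values was not tested.

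**Figure D3:**
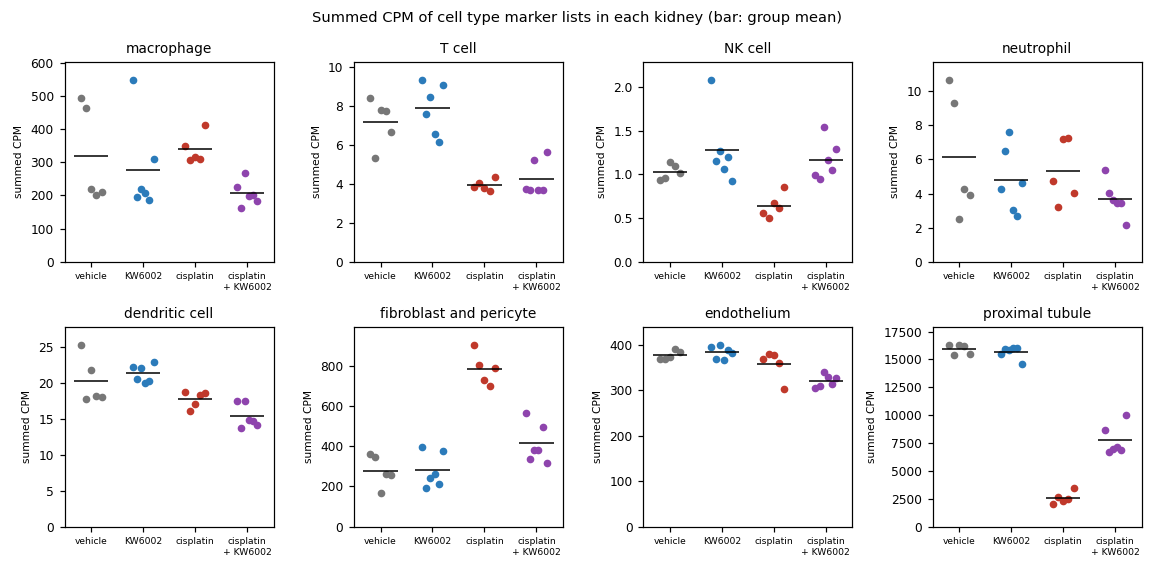
Summed CPM of the marker genes of each cell type (y axis) in each mouse (points) by group (x axis), with horizontal lines at the group means. Fibroblast and pericyte markers ran from 698 to 901 CPM with cisplatin against 169 to 361 CPM with vehicle, and T cell markers from 3.61 to 4.36 against 5.33 to 8.39 CPM.

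The transmembrane chemokines were abundant and rose by small, even amounts. Cxcl16 was 53.5, 43.7, 40.2, 45.1 and 43.6 CPM with vehicle and 60.2, 62, 59.6, 60.8 and 74.9 CPM with cisplatin. The groups did not overlap, and the rise was 1.40-fold (log2 0.49, SE 0.07, adjusted p = 1.39e-06). In co-treated mice Cxcl16 ran from 54.2 to 64.7 CPM with a median of 59.6, above every vehicle-treated mouse and 1.32-fold higher than vehicle (log2 0.40, SE 0.07, adjusted p = 2.21e-05). Scaled to Ppia, where the median of all genes was -0.25, Cxcl16 was at 0.14 (log2, adjusted p = 0.362), or 0.39 from that median. Its difference from cisplatin alone was -0.09 (SE 0.07, 95% interval -0.23 to 0.05, adjusted p = 0.251). Zmynd15, which overlaps the exons of Cxcl16 on the other strand, had lower means with cisplatin (6.85 CPM) than with vehicle (10.3 CPM).

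Cx3cl1, also called fractalkine, was 120, 86.6, 95.7, 94.4 and 96.5 CPM with vehicle and 146, 137, 124, 129 and 144 CPM with cisplatin. The highest vehicle-treated mouse stayed just below the lowest cisplatin-treated one, and the rise was 1.38-fold (log2 0.46, SE 0.09, adjusted p = 6.49e-05). Co-treated mice ran from 106 to 145 CPM with a median of 123 and were 1.25-fold above vehicle (log2 0.33, SE 0.08, adjusted p = 0.00208), with overlap. Scaled to Ppia this call too was lost (log2 0.07, adjusted p = 0.686), at 0.32 from the median of all genes. Against cisplatin alone the difference was -0.14 (SE 0.08, 95% interval -0.31 to 0.04, adjusted p = 0.171).

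Against the 5 vehicle-treated mice, which the comparison of cisplatin with vehicle shares, 6 of the 9 tested chemokines were higher and 1 was lower with co-treatment, against 29.8% and 29.9% of all genes. Their median log2 fold change was 0.40 and that of all genes -0.00. Ranges did not overlap for Cxcl1, Cxcl10 and Cxcl16, all higher, and for Cxcl9, lower, while 37.5% of all genes showed no overlap. Ccl5 (log2 0.16, 95% interval -0.42 to 0.75, adjusted p = 0.64) and Cxcl12 (log2 -0.10, 95% interval -0.38 to 0.19, adjusted p = 0.559) did not pass.

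KW6002 without cisplatin changed no chemokine past the threshold in edgeR, and none passed in DESeq2 either. Among all genes 0.0175% were higher and 0% were lower in edgeR. At an unadjusted p below 0.05, 4 of the 9 chemokines were higher and 0 lower, against 5.48% and 5.79% of all genes. The 4 were Ccl5 (log2 0.89, SE 0.27, 95% interval 0.33 to 1.46, adjusted p = 0.231), Cxcl1 (log2 0.79, SE 0.31, 95% interval 0.15 to 1.43, adjusted p = 0.335), Cxcl12 (log2 0.36, SE 0.14, 95% interval 0.07 to 0.64, adjusted p = 0.333) and Cxcl14 (log2 0.55, SE 0.25, 95% interval 0.04 to 1.07, adjusted p = 0.402). None of the 10 had separate ranges in these groups, which 1.38% of all genes had. In the KW6002-treated mice the lowest, median and highest levels were 0.717, 1.08 and 1.44 CPM for Ccl5, 0.617, 1.02 and 1.69 CPM for Cxcl1, 171, 208 and 251 CPM for Cxcl12, and 16.1, 19.5 and 27.7 CPM for Cxcl14. For Ccl5, Cxcl1 and Cxcl12 the median KW6002-treated mouse stood above all 5 vehicle-treated mice. Within the 500s numbers the Cxcl12 difference was 0.04 (adjusted p = 0.967), the Cxcl14 difference 0.28 (adjusted p = 0.785) and the Ccl5 difference 0.96 (adjusted p = 0.445).

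The other members lay closer to vehicle. KW6002-treated mice had 0.176 to 0.766 CPM of Ccl2, 0 to 0.224 CPM of Ccl7, 1.2 to 3.36 CPM of Cxcl9 and 1.72 to 4.68 CPM of Cxcl10. Cxcl16 ran from 39.9 to 43.6 CPM and Cx3cl1 from 97.8 to 120 CPM. The median log2 difference over the 9 tested chemokines was 0.17, against -0.00 over all genes.

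Whether KW6002 acted differently with and without cisplatin was tested as an interaction, the KW6002 effect in cisplatin-treated mice minus that in the others. It was positive and passed for 1 chemokine, Cxcl10, and negative and passed for 3, Cxcl1, Cxcl14 and Cx3cl1; 22.8% of all genes were positive and 19.9% negative. Cxcl1 had an interaction of -1.16 on the log2 scale (SE 0.35, adjusted p = 0.0101), from a KW6002 estimate of 0.79 at a low level without cisplatin and of -0.36 at a high level with it. Cxcl14 had -1.12 (SE 0.34, adjusted p = 0.0113), from 0.55 without and -0.57 with cisplatin. For Cx3cl1 it was -0.31 (SE 0.12, adjusted p = 0.039), from 0.17 and -0.14. Cxcl10 had 0.78 (SE 0.27, adjusted p = 0.0229), from 0.12 and 0.90. None of these 4 estimates without cisplatin passed on its own.

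These interactions differed in how far they rested on single mice. The Cxcl10 one was lost without vehicle replicate 1 (log2 0.68, adjusted p = 0.0515), within the 500s numbers (log2 0.29, adjusted p = 0.474) and without the 4 libraries (log2 0.56, adjusted p = 0.160). The Cx3cl1 one was lost in 14 of 22 fits that left out 1 mouse (log2 -0.31 to -0.26, adjusted p = 0.0518 to 0.0793) and within the 500s numbers (adjusted p = 0.105). Those of Cxcl1 (log2 -1.42, adjusted p = 0.0264) and Cxcl14 (log2 -0.85, adjusted p = 0.0484) passed within the 500s numbers. Ccl2 had an interaction of -0.95 (SE 0.58, 95% interval -2.16 to 0.26, adjusted p = 0.198) that did not pass, nor did Ccl5, Cxcl9, Cxcl12 (log2 -0.37, SE 0.19, adjusted p = 0.126) and Cxcl16.

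Levels were compared between genes per kilobase of merged exons. In vehicle-treated kidneys Cx3cl1 stood first at 25.1 CPM per kb, followed by Cxcl12 at 19.97, Cxcl16 at 15.0 and Cxcl14 at 7.59, and the other 6 had 1.24 or less. Over mice, neighbours in this order were separate only between Cxcl16 and Cxcl14 and between Cxcl14 and Cxcl10. KW6002-treated kidneys kept the first 5 places in the same order. In cisplatin-treated kidneys Cx3cl1 led with 34.6 CPM per kb, apart from the rest, and Cxcl1 rose from place 9 to place 2 with 21.7, a level that overlapped those of Cxcl16 (21.01), Cxcl14 (20.5) and Cxcl12 (18.9). Cxcl10 (3.55) and Ccl2 (2.17) came next, and Cxcl9 was last with 0.117. Co-treated kidneys had Cx3cl1 at 31.5, Cxcl16 at 19.7, Cxcl12 at 18.7, Cxcl1 at 16.8, Cxcl14 at 13.8 and Cxcl10 at 6.64 CPM per kb, with Cx3cl1 and Cxcl10 each apart from their neighbours. With the longest transcript as the length, Cxcl12 took first place in KW6002-treated kidneys and Cxcl1 place 4 in cisplatin-treated kidneys.

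**Figure D4:**
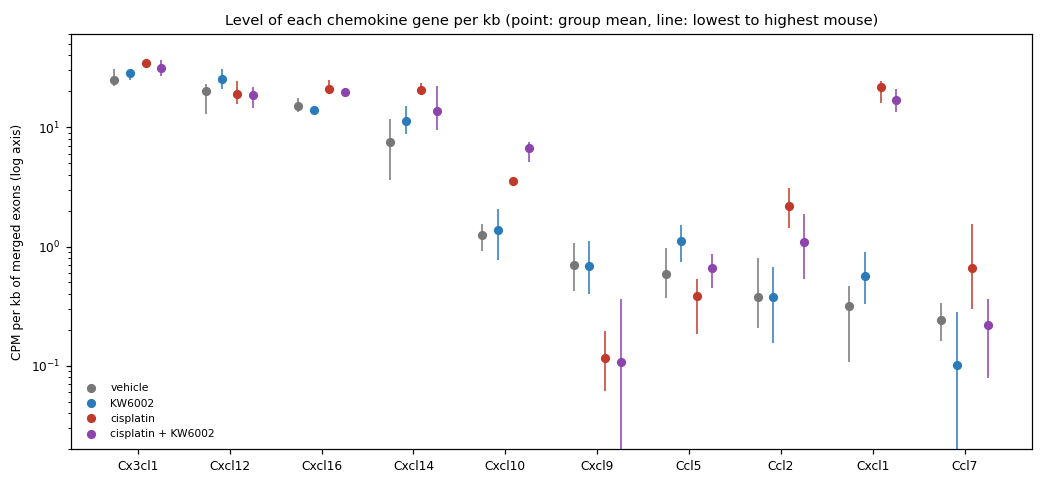
CPM per kilobase of merged exons (log axis) of the 10 chemokines in the 4 groups, with points at the group means and lines from the lowest to the highest mouse. Lines that would reach 0 stop at the edge of the axis at 0.02; Cxcl1 moves from 0.318 with vehicle to 21.7 CPM per kb with cisplatin.

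The other chemokine ligands split in direction. Of 28 listed, 19 were tested, and 6 were higher and 5 lower with cisplatin than with vehicle, beside 34.6% and 35.9% of all genes. Cxcl2, a second Cxcr2 ligand, was at 0.0336 to 0.0976 CPM in vehicle-treated mice (1 to 3 counts), at 3 to 5.62 CPM in cisplatin-treated mice and at 1.65 to 3.02 CPM in co-treated mice. Cxcl17, a mucosal chemokine, was at 0 to 0.0802 CPM with vehicle, 3.28 to 3.97 CPM with cisplatin and 2.18 to 2.73 CPM with co-treatment. Both rose from levels at which a vehicle library held at most 3 counts, and both were lower in co-treated than in cisplatin-treated mice, Cxcl2 by -1.10 (log2, adjusted p = 0.00248) and Cxcl17 by -0.66 (log2, adjusted p = 0.00752). Ccl8, a CC chemokine made by macrophages (log2 -1.89, SE 0.55, adjusted p = 0.00416), and Ccl21a, the lymphatic Ccr7 ligand (log2 -0.45, SE 0.19, adjusted p = 0.045), were lower with cisplatin. Both calls were lost without the 4 libraries (Ccl8 log2 -0.50, SE 0.46, adjusted p = 0.351, and Ccl21a log2 -0.33, SE 0.23, adjusted p = 0.216). There 10 of the 19 were higher and 2 lower with cisplatin, beside 33.4% and 34.1% of all genes. Co-treatment left 1 of the 19 higher and 5 lower than cisplatin alone, beside 28.6% and 27.2% of all genes. Against vehicle it left 6 higher and 6 lower, beside 29.8% and 29.9% (8 and 3 without the 4 libraries, beside 26.7% and 27.0%). For KW6002 against vehicle 0 passed. The interaction passed for 1 in each direction, beside 22.8% positive and 19.9% negative (0 higher and 3 lower without the 4 libraries, beside 20.5% and 18.6%).

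Receptors of the 10 chemokines were tested for 10 of 12 genes (Ackr1 and Ccr3 were too low). With cisplatin 2 were higher (Ccr1 and Cxcr2) and 2 lower (Cxcr3 and Cxcr6), beside 34.6% and 35.9% of all genes. Ccr1, a receptor of Ccl5 and Ccl7 on myeloid cells, went from 0.456 to 1 CPM with vehicle to 6.76 to 12.8 CPM with cisplatin and 1.49 to 4.16 CPM with co-treatment. These 3 ranges were separate. Its log2 fold change was 3.63 with cisplatin (SE 0.29, adjusted p = 1.65e-10) and -1.75 from cisplatin to co-treatment (SE 0.24, adjusted p = 1.72e-06), with an interaction of -1.85 (SE 0.40, adjusted p = 0.000702). Cxcr2, the receptor of Cxcl1, was higher by 0.88 with cisplatin (log2, SE 0.39, adjusted p = 0.0483) and lower in co-treated than in cisplatin-treated mice (log2 -1.59, SE 0.39, adjusted p = 0.00135). Within the 500s numbers the rise had an adjusted p of 0.0533. Cxcr2 counts were 21 to 57 per library with cisplatin and 5 to 24 with co-treatment.

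Cxcr3, the receptor of Cxcl9 and Cxcl10, was at 0.586 to 0.722 CPM with vehicle, 0.0251 to 0.241 CPM with cisplatin and 0.0627 to 0.24 CPM with co-treatment. It was thus lower with cisplatin (log2 -2.13, SE 0.37, adjusted p = 2.47e-05) in mice in which Cxcl10 was higher and Cxcl9 lower, and its difference between co-treatment and cisplatin did not pass (log2 0.29, SE 0.42, adjusted p = 0.572). Cxcr6, the receptor of Cxcl16, was at 0.553 to 1.04 CPM with vehicle and 0.0268 to 0.085 CPM (1 to 3 counts) with cisplatin. Co-treated mice had 0.115 to 0.206 CPM of Cxcr6, above all cisplatin-treated mice (adjusted p = 0.00319) on 4 to 7 counts per library. Scaled to Ppia that difference was 0.88 (log2, adjusted p = 0.0685). Ccr2, the receptor of Ccl2 and Ccl7, had a log2 difference of -0.33 with cisplatin (SE 0.31, adjusted p = 0.360) and was lower with co-treatment than with vehicle (log2 -1.05, SE 0.31, adjusted p = 0.00562). That Ccr2 call was lost without the 4 libraries (log2 -0.51, SE 0.30, adjusted p = 0.160) and within the 500s numbers (log2 -0.21, SE 0.30, adjusted p = 0.582). Between co-treatment and cisplatin, Ccr2 had a log2 difference of -0.72 that passed without the 4 libraries (log2 -0.69, SE 0.26, adjusted p = 0.0310). Cx3cr1, the receptor of Cx3cl1, had 0.51 with cisplatin (SE 0.24, adjusted p = 0.058) and passed without the 4 libraries (log2 0.70, SE 0.26, adjusted p = 0.0225), and Cxcr4 and Ackr3 did not pass in any comparison of all mice. Ackr2, a scavenger of CC chemokines, was lower with co-treatment than with vehicle (log2 -1.39, SE 0.49, adjusted p = 0.0176), but without the 4 libraries its log2 difference was 0.19 (SE 0.40, adjusted p = 0.719). Of 11 other chemokine receptors 3 were tested, and 1 was higher and 2 lower with cisplatin, beside 34.6% and 35.9% of all genes. Among them was Ccrl2, a receptor that binds chemerin (log2 -0.32, SE 0.14, adjusted p = 0.0456), whose call was lost without the 4 libraries (log2 -0.34, adjusted p = 0.0876).

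**Figure D5:**
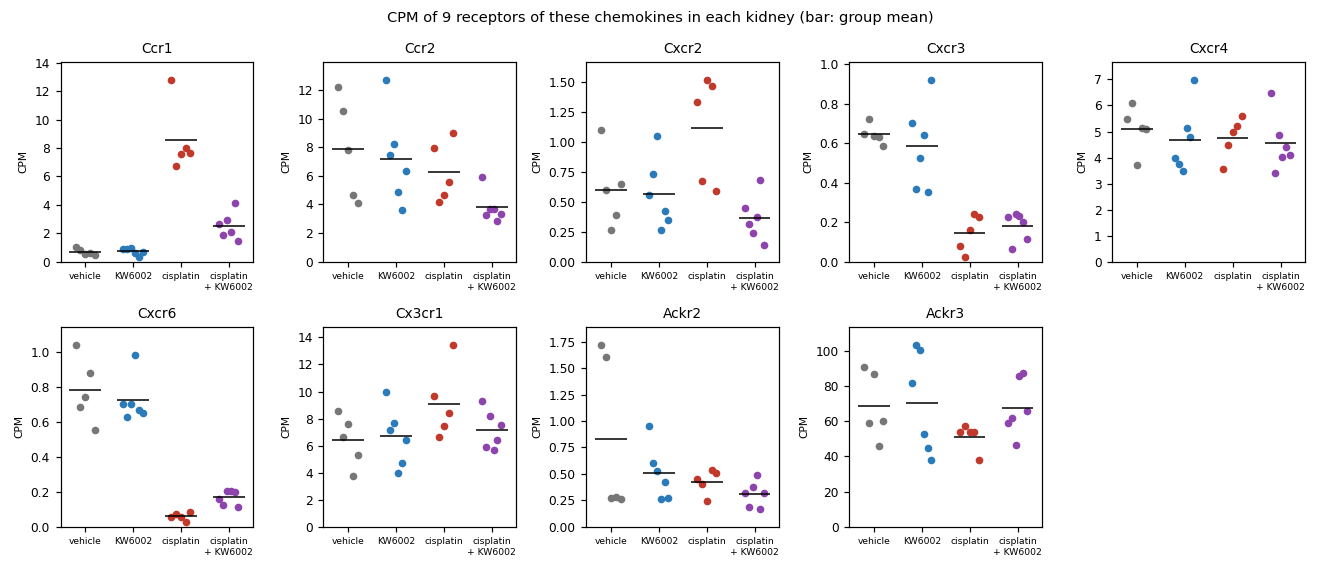
CPM of 9 receptors of these chemokines (y axis, linear from 0, 1 panel per gene) in each mouse (points) by group (x axis), with horizontal lines at the group means. Ccr1 lay between 6.76 and 12.8 CPM with cisplatin and between 1.49 and 4.16 CPM with co-treatment, and Cxcr3 and Cxcr6 were low in both.

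Genes known to act upstream of chemokine transcription were mostly higher with cisplatin. Of 10 tested inducing cytokines and cytokine receptors (13 listed), 8 were higher and 0 lower, beside 34.6% and 35.9% of all genes. With co-treatment 8 were lower than with cisplatin and 0 higher, beside 27.2% and 28.6% of all genes. Without the 4 libraries 6 were lower, beside 27.4% of all genes. The list was 7 higher and 0 lower for co-treatment against vehicle, beside 29.8% and 29.9% of all genes. Scaled to Ppia, 4 were higher there, beside 10.4% of all genes. Among genes passing at a mean log2 CPM of 0 or more, receptors of TNF, IL-1 and interferon gamma had the largest rises. These were Tnfrsf1b 2.23 (SE 0.24, adjusted p = 2.33e-08), Ifngr1 1.85 (SE 0.11, adjusted p = 9.85e-13), Tnfrsf1a 1.46 (SE 0.07, adjusted p = 3.1e-14) and Il1r1 1.25 (SE 0.09, adjusted p = 1.34e-11), all log2. The median over all 10 tested genes was 1.25, and genes below that level, such as low-count cytokines, were not ranked. The interferon genes Ifng and Ifnb1, named after their values were seen, had at most 2 counts in every mouse, too few to compare.

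All 10 NF-kB and interferon transcription factors were tested, and 9 were higher and 0 lower with cisplatin, beside 34.6% and 35.9% of all genes. Nfkbia, the NF-kB inhibitor that NF-kB itself induces (log2 1.64, SE 0.11, adjusted p = 6.73e-12), Relb (log2 1.44, SE 0.14, adjusted p = 6.07e-09), Irf7 (log2 1.37, SE 0.14, adjusted p = 6.32e-09) and Nfkb2 (log2 1.35, SE 0.09, adjusted p = 6.52e-12) had the largest rises. With co-treatment 4 of the 10 were lower than with cisplatin and 2 higher, beside 27.2% and 28.6% of all genes. Irf1, an interferon-induced factor named after its values were seen because it moved as Cxcl10 did, was higher. It ran from 24.8 to 31.2 CPM with cisplatin and from 36.1 to 55.3 CPM with co-treatment (log2 0.72, SE 0.09, adjusted p = 8.88e-07), without overlap. Scaled to Ppia the difference was 0.12 (log2, adjusted p = 0.385). Against vehicle all 10 factors were higher with co-treatment, beside 29.8% of all genes, and 6 were higher when scaled to Ppia, beside 10.4%. The interaction was negative for 4 and positive for 2, beside 19.9% and 22.8% of all genes.

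Of 7 proteases that cleave or shed chemokines, 3 were higher and 2 lower with cisplatin, beside 34.6% and 35.9% of all genes. In co-treated against cisplatin-treated mice 1 was higher and 3 lower, beside 28.6% and 27.2%. Mmp14 had the largest rise (log2 2.07, SE 0.14, adjusted p = 6.35e-12), followed by Mmp2 (log2 1.14, SE 0.38, adjusted p = 0.0109). Adam10, which sheds Cxcl16 and Cx3cl1, ran from 98.9 to 107 CPM with vehicle, 139 to 161 CPM with cisplatin and 93.4 to 111 CPM with co-treatment. Its rise with cisplatin (log2 0.52, SE 0.05, adjusted p = 1.45e-09) and its fall with co-treatment (log2 -0.52, SE 0.04, adjusted p = 2.72e-09) left a log2 difference from vehicle of -0.00 (SE 0.05, adjusted p = 0.992). Mmp9 was lower with cisplatin (log2 -0.85, SE 0.38, adjusted p = 0.0488), a call lost without the 4 libraries (log2 -0.25, SE 0.41, adjusted p = 0.614).

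Likeness of pattern was described by Pearson's r between deviations of log2 CPM from the group means over the 22 mice, among about 12989 genes, with no test. Cxcl14 had the closest companions, Fbln5 (r = 0.90), Colec12 (r = 0.90) and Lpar1 (r = 0.89). Ccl2 was most like Kmt5a (r = 0.83), Slc15a3 (r = 0.81) and Mrps2 (r = 0.78), and Cxcl1 most like Cdkn1a (r = 0.76), Coro2b (r = 0.76) and Rdh11 (r = 0.75). For Cxcl16 the first was Zmynd15 (r = 0.81), the gene that shares exon bases with it. For the others the first was Acss3 for Cxcl9 (r = 0.85), Aldh1a2 for Cx3cl1 (r = 0.83), Art4 for Cxcl12 (r = 0.77), Gtf3a for Cxcl10 (r = 0.75) and Zfp108 for Ccl5 (r = 0.73). Among the chemokines themselves the highest value was 0.49, between Cxcl16 and Cx3cl1, and the lowest was -0.39, between Ccl2 and Cxcl12. The points share libraries and depth, and several of these genes had few counts.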

How the data were processed

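RNA-Seq of 22 mouse kidneys was analysed. Stranded mRNA libraries were demultiplexed with bcl2fastq 2.17.1.14, mapped to mm10 with STAR and counted with HTSeq 0.6.1p1, as the submitters' processing notes list. The deposited values are raw counts, whole numbers of reads per Ensembl gene and library that the authors had not normalized; 66 unnamed columns were not used. Symbols and positions came from GENCODE M21 and promoters from RefSeq.

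Totals ran from 26471762 to 40510754 counts, so genes under about 1 CPM rest on few reads. With edgeR 4.0.16 in R 4.3.3, genes with 10 counts at the median library size in at least 5 libraries and 15 in all were kept (17131 genes, 99.9% of counts). TMM factors, 1 mean per group, no covariate and quasi-likelihood F tests followed, with Benjamini-Hochberg adjustment. The common dispersion was 0.0168. The steps were tested on simulated counts with known changes.

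Mice were grouped by the labels. No pair of libraries in a group agreed within counting noise. Named genes are the 10 chemokines, their receptors, up to 4 genes per list with the largest cisplatin response among those passing at a mean log2 CPM of 0 or more, and up to 3 likest genes per chemokine. Some genes of the lists are not reported here by name. The members and lists were chosen with earlier results of these data known. Alternatives were DESeq2 1.42.0, other scalings, filters, thresholds and designs, the replicate block, the 500s label numbers and each library left out. Leaving out the 4 libraries with high macrophage or adrenal marker sums was added after seeing the data. Intervals are 95% intervals of the fit.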

Additional observations from a re-analysis of the deposited data

Results flagged for a closer look

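In 3 of 40 sets of 1 chemokine in 1 group, a single mouse stood apart from its group by Dixon's test, and chance flags about 1 set in 20. Cxcl1 was 29.7 CPM in cisplatin replicate 2, the lowest of its group, with a gap of 0.726 of the group's range. Cxcl12 was 106.6 CPM in vehicle replicate 2, the lowest of its group, with a gap of 0.778 of the range, and the same mouse had the lowest vehicle value of Cxcl14 and a macrophage marker sum of 464 CPM. Cxcl16 was 74.9 CPM in cisplatin replicate 5, the highest of its group, with a gap of 0.841 of the range.

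By edgeR's interaction test, the KW6002 effect differed between mice with and without cisplatin for 4 of the 9 chemokines compared. It was positive for 1 and negative for 3, beside 22.8% and 19.9% of all genes, so such calls were frequent. The difference on the log2 scale was -1.16 for Cxcl1, 0.78 for Cxcl10, -1.12 for Cxcl14 and -0.31 for Cx3cl1. The Cxcl10 call was lost within the 500s numbers (adjusted p = 0.474) and without the 4 libraries (adjusted p = 0.160). The Cx3cl1 call was lost in 14 of 22 fits that left out 1 mouse.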

How the results depend on the processing

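Of 1141 single-gene values under the alternatives, 1012 kept their sign and side of the threshold, 72 lost and 18 gained a call, and 39 changed sign, 1 of them past the threshold. Replicate numbers did not pair the mice (deviations of same-numbered libraries correlated from -0.175 to 0.405 over 31 pairs), and the replicate block changed no count of chemokines called: 6 higher and 1 lower for cisplatin against vehicle, 2 and 2 for co-treatment against cisplatin, 0 and 0 for KW6002 against vehicle, 6 and 1 for co-treatment against vehicle, and 1 and 3 for the interaction.

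With at least 10 counts required in every library, Ccl2, Ccl7, Ccl5, Cxcl1 and Cxcl9 were not tested. Of the other chemokines cisplatin lowered 0, beside 37.0% of all genes. Co-treatment left 1 higher and 1 lower than cisplatin, beside 30.3% and 29.5%, and 0 lower than vehicle, beside 31.1%. Scaled to Ppia, 0 were higher and 6 lower for co-treatment against cisplatin and 0 higher and 6 lower for the interaction. Of all genes, 72.5% and 61.4% were called lower there, and 4.52% and 3.21% higher. In fits of only the 2 groups compared, 4 were lower in co-treated than in cisplatin-treated mice, beside 29.6% of all genes. Within the 500s numbers 4 were also lower, beside 28.6%, and 1 of them was Ccl7, which the main fit did not test. The interaction within the 500s had 0 higher, beside 18.3% of all genes. Under the stricter threshold of 0.01 together with a 2-fold change, co-treatment against cisplatin had 0 higher and 0 lower, beside 4.65% and 5.66% of all genes. Co-treatment against vehicle had 3 higher, beside 5.83%, and the interaction 0 and 0, beside 4.24% and 4.33%. Tested against a log2 fold change of 1, cisplatin against vehicle had 3 higher, beside 8.10% of all genes. Co-treatment against cisplatin had 0 and 0, beside 2.01% and 1.93%. Co-treatment against vehicle had 2 higher, beside 3.08%, and the interaction 0 and 0, beside 1.59% and 1.02%. Without the 4 libraries 1 was higher for co-treatment against cisplatin and 0 for the interaction, beside 27.4% and 20.5% of all genes. Leaving out 1 mouse at a time gave 1 to 2 lower for cisplatin against vehicle, 1 to 2 higher and 0 to 3 lower for co-treatment against cisplatin, and 0 to 1 higher and 2 to 3 lower for the interaction.

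Signs turned for Cxcl12 with cisplatin (0.14 by library size, 0.30 by Ppia) and with co-treatment against vehicle (0.0600 by library size), for Ccl5 with co-treatment against vehicle (-0.0851 by Ppia), for Ccl2 (0.74 in the 500s, 0.52 without the 4 libraries) and Cxcl9 (0.49 and 0.39) under KW6002, and for the Cxcl16 interaction (-0.0481 by library size, -0.62 by Ppia, adjusted p = 0.00385, and -0.0825 without the 4 libraries). Leaving out 1 mouse turned Cxcl9 (-0.96 to 0.15) and Cxcl12 (-0.0776 to 0.0930) for co-treatment against cisplatin, Ccl2 (-0.24 to 0.46), Cxcl9 (-0.21 to 0.19) and Cxcl10 (-0.0312 to 0.25) under KW6002, and the interactions of Ccl5 (-0.37 to 0.0249), Cxcl9 (-0.94 to 0.17) and Cxcl16 (-0.0424 to 0.0907). The cause of these changes was not tested. The median of all genes was 0.20 for cisplatin against vehicle by library size and 0.35 by Ppia, and -0.64 for the interaction by Ppia, so a gene is read relative to it. Depth limits values under about 1 CPM, such as those of Ccl7 and Ccl5 in most mice, Cxcl1 with vehicle and Cxcl9 with cisplatin.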
